A study of Mus musculus with 2 samples.

Results

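The cells described here are macrophages of day 5 mouse skin wounds with much RNA for the 3 chains of complement C1q (C1q-high macrophages), 1147 of the 23089 cell barcodes in 2 single-cell RNA libraries. They were chosen by measured values, among cells in which 500 or more genes were found and mitochondrial genes gave no more than 6% of UMIs, where a UMI is the tag that counts 1 RNA molecule. A macrophage gate took cells with at least 5 UMIs of *Lyz2*, at least 2 UMIs of *Fcgr1*, *Csf1r*, *Adgre1* and *Msr1* together, under 0.5% of UMIs from *Col1a1* and *Col3a1*, under 0.5% from *Krt5* and *Krt14*, and none of *Ccr7*. Within that gate, C1q-high cells had at least 0.5% of their UMIs from *C1qa*, *C1qb* and *C1qc* and not UMIs of both *Cbr2* and *Folr2*. They also met 1 further criterion, an upper limit on a gene that is not named here. Levels of the genes of the rule are therefore a description of the choice and support nothing.

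The study asked what CD206+ macrophages, the cells that use the mannose receptor gene *Mrc1*, do in wound healing. Both libraries were labelled as wounds of C57BL/6 *Mrc1-DTR* mice aged 7 to 9 weeks, given PBS (control) or diphtheria toxin (DTX). *Mrc1-DTR* mice carry the receptor for diphtheria toxin under the *Mrc1* promoter, so that the toxin can kill cells that use that promoter, in the wound or elsewhere. For each library, live cells from the wounds of 3 pooled mice were sorted as 7AAD-negative and captured with a 10x Genomics kit that reads the 3′ ends of RNA, with no biological replicate. The paper also names technical replicates, and whether a library joins them is not stated. The paper describes the controls as wild-type mice given the toxin, whereas the labels give PBS-treated *Mrc1-DTR* mice, and the cell numbers it gives for the libraries stand in the opposite order to the files. The labels were followed. The paper also reports a larger share of immune cells, fewer fibroblasts and a smaller share of *C1qa*+ macrophages after depletion. Below, from PBS to DTX, gated macrophages are a larger share and gated fibroblasts a smaller share of the cells that passed the filters. The share of C1q-high cells falls among gated macrophages, but not among all cells that passed the filters. These gates are not the paper's clusters, and gated macrophages are only a part of its immune cells.

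Both libraries held male cells. In C1q-high macrophages, *Xist*, the RNA of the inactive X, had 0 UMIs in PBS and 1 in DTX, and *Ddx3y* on the Y chromosome lay at 121 and 127 CPM, the counts per 1000000 UMIs. However, *Mid1*, which crosses the border of the region that X and Y share, lay at 144 CPM (95% interval 132 to 158) in PBS and 1.24 CPM (0.403 to 2.90) in DTX, and *Gm47283*, annotated on the Y, at 122 and 2.73 CPM. Their ratios were the lowest of the 3971 genes with at least 200 UMIs in C1q-high macrophages. The log2 ratio of *Mid1* was -5.69 in macrophages with little C1q, and *Mid1* lay at 73.9 and 5.44 CPM in lymphocytes. *Slc15a2*, a peptide transporter, had 0 UMIs in PBS and 30 in DTX, again with 0 CPM in lymphocytes of PBS and 24.5 CPM in those of DTX. The mice of the 2 libraries thus differed in the RNA of these genes in cells of unrelated kinds, and genotype, treatment, animals and capture cannot be told apart in any comparison of DTX with PBS below.

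C1q is the molecule that starts the classical complement pathway. It recognises antibody complexes, dying cells and debris, and unlike most complement proteins it is made largely by macrophages and dendritic cells outside the liver. In many tissues, macrophages with much C1q RNA also carry receptors and enzymes for the uptake and digestion of dead cells and lipids, whereas monocytes newly arrived from blood have little. In a healing wound both kinds are present.

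The 3 C1q genes lie side by side on the minus strand of chromosome 4, *C1qb* at 136880129-136886187 (ENSMUSG00000036905), *C1qc* at 136889804-136893065 (ENSMUSG00000036896) and *C1qa* at 136895917-136898803 (ENSMUSG00000036887), in GRCm38 with GENCODE M21. The marker *Ms4a7*, a membrane protein gene of tissue macrophages, lies on chromosome 19 at 11321039-11336146 (minus strand, ENSMUSG00000024672). *Ccl8*, a chemokine gene, lies on chromosome 11 at 82115185-82116799 (plus strand, ENSMUSG00000009185), and *Chil3*, for a chitinase-like protein of monocytes and neutrophils, on chromosome 3 at 106147554-106167564 (minus strand, ENSMUSG00000040809). The 250 bases before the start of these genes are shown because *C1qb* defines the cells, *Ms4a7* was used to check the label and is not in the rule, and *Ccl8* and *Chil3* had large differences between libraries; they are from RefSeq (GRCm38.p6) and read 5′ to 3′ in the direction of the gene.
C1qb, chr4:136886201-136886450, minus strand: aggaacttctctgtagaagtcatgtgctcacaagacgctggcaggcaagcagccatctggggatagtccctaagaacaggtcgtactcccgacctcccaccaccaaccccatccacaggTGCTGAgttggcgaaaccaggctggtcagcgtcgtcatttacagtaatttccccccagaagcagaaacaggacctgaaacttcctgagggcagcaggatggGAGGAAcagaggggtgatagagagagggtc
Ms4a7, chr19:11336147-11336396, minus strand: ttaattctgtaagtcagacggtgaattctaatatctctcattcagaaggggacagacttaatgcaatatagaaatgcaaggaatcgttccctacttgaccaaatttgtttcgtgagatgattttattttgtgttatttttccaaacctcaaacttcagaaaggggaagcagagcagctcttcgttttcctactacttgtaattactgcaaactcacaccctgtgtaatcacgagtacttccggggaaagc
Ccl8, chr11:82114935-82115184, plus strand: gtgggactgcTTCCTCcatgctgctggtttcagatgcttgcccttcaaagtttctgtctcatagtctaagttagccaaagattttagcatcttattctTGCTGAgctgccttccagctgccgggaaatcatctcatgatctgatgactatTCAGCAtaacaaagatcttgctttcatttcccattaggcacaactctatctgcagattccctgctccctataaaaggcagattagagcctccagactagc
Chil3, chr3:106167565-106167814, minus strand: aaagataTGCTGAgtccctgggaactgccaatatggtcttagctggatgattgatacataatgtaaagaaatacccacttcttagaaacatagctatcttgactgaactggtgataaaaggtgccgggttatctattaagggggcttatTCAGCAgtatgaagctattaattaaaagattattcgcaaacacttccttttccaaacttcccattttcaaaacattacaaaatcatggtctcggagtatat
Capitals mark GAGGAA, the core bound by the macrophage factor PU.1, and TGCTGA, the half-site bound by Maf proteins, searched on both strands, where they read TTCCTC and TCAGCA. None of the matches overlapped. *C1qb* had 1 of each, *Ccl8* had 1 and 2, *Chil3* had 0 and 2, and *Ms4a7* had neither. Of 32851 RefSeq promoter windows of this length, 23.3% held the first and 16.1% the second, so a match is a description and not evidence of binding. The genes of these factors were used in the cells of both libraries: *Spi1* (PU.1) lay at 350 CPM (330 to 371) in PBS and 416 CPM (396 to 436) in DTX, and *Maf* at 81.4 CPM and 99.6 CPM.

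Of 12058 barcodes in PBS and 11031 in DTX, 8326 and 7188 passed the filter on genes and mitochondrial UMIs, and 1554 and 4516 entered the macrophage gate. C1q-high macrophages were 601 in PBS and 546 in DTX. As a share of the gate they were 38.7% in PBS (exact binomial 95% interval 36.2 to 41.1) and 12.1% in DTX (11.2 to 13.1), while as a share of all filtered cells they were 7.22% (6.67 to 7.80) and 7.60% (6.99 to 8.23), intervals that overlap. The gate itself was 18.7% of filtered cells in PBS and 62.8% in DTX, and a gate on fibroblast collagens 33.7% and 7.16%, so the 2 denominators differ between the libraries. These intervals, and all below, cover counting error only; with 1 library per group there is no replicate error and no test.

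Among the other gated cells, 771 and 2937 were C1q-low macrophages, with under 0.5% C1q and otherwise under the same rule, and 159 and 127 had C1q and both *Cbr2* and *Folr2*, which mark resident skin macrophages. The C1q share had no gap at the threshold. Among cells otherwise alike, 88 in PBS and 173 in DTX lay just outside, from 0.4 to 0.5%, and 86 and 125 just inside, from 0.5 to 0.6%. No barcode of a C1q-high cell was C1q-high in both libraries, although the libraries shared 37 barcodes, 4 of them of C1q-high cells.

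**Figure D1:**
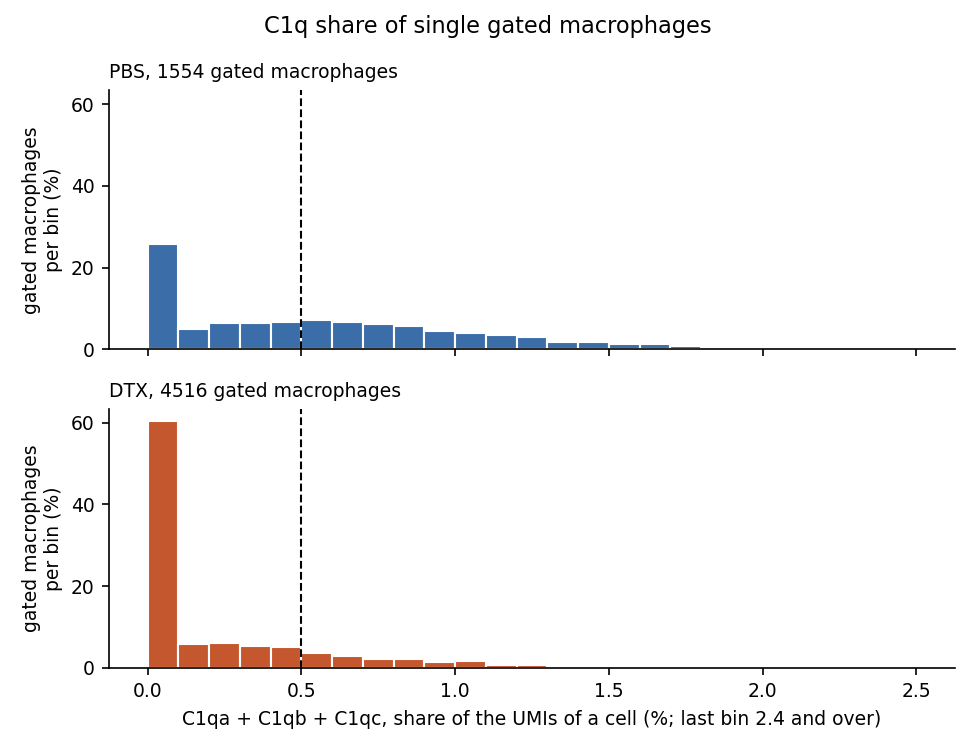
Share of the UMIs of a cell from *C1qa*, *C1qb* and *C1qc* (x axis, %) in gated macrophages of PBS (1554 cells) and DTX (4516 cells), as the percentage of gated cells per bin of 0.1 (y axis); the dashed line is the threshold of 0.5%. The distribution is continuous across the line, and in DTX more of the cells lie in the lowest bin.

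C1q-high macrophages carried 3315452 UMIs in PBS, with a median of 5183 per cell, and 4025974 in DTX, with a median of 7043. The median mitochondrial share was 2.77% in PBS and 3.98% in DTX, and 29.8% and 62.6% of the cells had over 2000 genes; the part of these differences in the comparisons of DTX with PBS was not tested beyond the alternatives on genes and mitochondrial UMIs. Levels are sums over the cells in CPM. In PBS, *C1qa* lay at 3514 CPM, *C1qb* at 4618 CPM and *C1qc* at 1650 CPM, and in DTX at 3068, 4154 and 1368 CPM. Lymphocytes, gated on T and NK cell genes, had between 1.36 and 11.8 CPM of these genes, a level that free RNA can give in cells that make none.

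The label was checked with its markers *Ms4a7* and *Igf1*, which the rule does not use. Both are in the paper's gene list of *C1qa*+ macrophages from the same data, so this check is not independent. *Ms4a7* lay at 1309 CPM (1270 to 1349) in PBS and 844 CPM (816 to 873) in DTX, against 348 and 246 CPM in C1q-low macrophages and 1.96 and 4.08 CPM in lymphocytes. After thinning every cell to 2000 UMIs, which left out 25 C1q-high cells in PBS and 1 in DTX, 78.6% of C1q-high cells in PBS and 64.8% in DTX had a UMI of *Ms4a7* (89.7% and 86.4% unthinned). *Igf1*, which encodes insulin-like growth factor 1, was a weaker marker, with a UMI in 22.4% (19.1 to 26.0) of the thinned cells in PBS and 6.24% (4.36 to 8.61) in DTX (36.9% and 11.9% unthinned), against 0.503% and 0 of 152 lymphocytes in DTX, where a limit of 3 cells of the total allows up to 1.97%. The median lymphocyte had 6822 UMIs in PBS and 8058 in DTX before thinning. Thus *Ms4a7* RNA was found in most of the cells of both libraries and *Igf1* RNA in a minority. Neither gene sets them apart from the cells with *Cbr2* and *Folr2*, which had 1525 CPM of *Ms4a7* in PBS and 1066 CPM in DTX, and 308 and 112 CPM of *Igf1*, against 173 and 35.8 CPM in C1q-high cells.

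**Figure D2:**
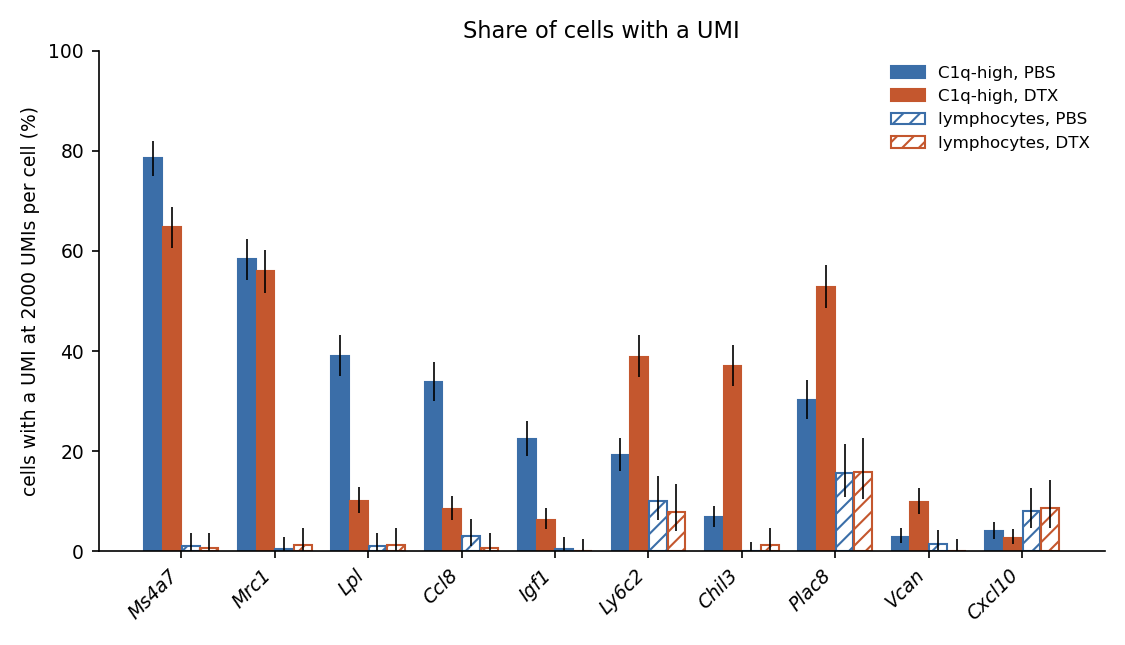
Percentage of cells with at least 1 UMI of 10 genes (y axis) at 2000 UMIs per cell, in 576 and 545 C1q-high macrophages of PBS and DTX (filled) and in 199 and 152 lymphocytes (hatched), with exact 95% binomial intervals. *Lpl*, *Ccl8* and *Igf1* are found in fewer C1q-high cells of DTX, *Ly6c2*, *Chil3*, *Plac8* and *Vcan* in more, and *Cxcl10* stays at or under the share in lymphocytes.

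Within each library, C1q-high cells were set beside the C1q-low cells of the same gate. As the rule split the same cells, this is a description with no test. Of 4214 genes with at least 200 UMIs in the 2 classes in each library and outside the rule, 18 (0.427%) were at least 2 times higher in C1q-high cells in both libraries, a log2 ratio of 1 with 1 CPM added, and 58 (1.38%) were at least 2 times lower. Higher in both were *Ms4a7*, with log2 ratios of 1.91 in PBS and 1.78 in DTX, the lipid and debris receptor gene *Trem2* (1.45 and 1.00), the phospholipid transfer protein gene *Pltp* (1.01 and 1.44), the selenium carrier gene *Selenop* (1.40 and 1.13), the integrin gene *Itga9* (1.49 and 1.70) and *Vcam1*, for an adhesion molecule (1.36 and 1.35). So were the inhibitory receptor gene *Cd72* (1.69 and 1.52), the *Slamf9* receptor gene (1.30 and 1.62), the transcription factor gene *Spic*, known from macrophages that recycle iron (1.19 and 1.20), and *Pdgfa*, for a growth factor of fibroblasts (1.03 and 1.22). Of 20 chemokine and receptor genes 2 were higher, *Ccl8* (1.80 and 2.48) and *Pf4* (1.36 and 1.40), and 1 lower, *Cxcl3* (-1.40 and -1.34). The medians of that list were 0.05 in PBS and -0.33 in DTX. Of 12 growth factor genes 3 were higher, *Pdgfa*, *Igf1* (1.22 and 1.87) and *Gdf15* (1.23 and 2.07), and 0 lower, with medians of 0.58 and 0.21.

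Genes lower in C1q-high than in C1q-low cells included those of blood monocytes, with log2 ratios for *Hp*, haptoglobin, of -3.41 in PBS and -2.49 in DTX, for *Vcan*, versican, of -2.14 and -2.17, for *Chil3* of -2.35 and -1.40, for *Plac8* of -1.31 and -1.11 and for *Ifitm1* of -1.05 and -1.84. Of 19 monocyte genes with enough UMIs, 7 were lower and 0 higher, and the list's medians were -1.05 and -0.94. Many others were keratinocyte genes: 8 of 13 such markers were lower, with medians of -2.73 and -1.39. *Cd209a*, a dendritic cell gene, was lower by -2.66 and -2.07, and *Cd207*, the langerin gene of Langerhans cells, which was chosen after its values were seen, lay at 207 and 41.7 CPM in C1q-low cells against 45.8 and 15.2 CPM in C1q-high cells. Summed over 14 markers, keratinocyte RNA was 3730 and 568 CPM in C1q-low and 610 and 242 CPM in C1q-high cells. The C1q-low cells therefore held RNA of other cell kinds besides monocytes, and its part in these ratios was not tested. The log2 ratio of the MHC class II gene *H2-Ab1*, whose product presents antigen, was -0.07 in PBS and 0.56 in DTX.

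The comparison with cells that also had *Cbr2* and *Folr2* had fewer genes with enough UMIs. Of 2647 genes, 3 (0.113%) were higher and 10 (0.378%) lower in both libraries. The 3 were *Axl*, a receptor for bridged dying cells (1.07 in PBS and 1.14 in DTX), the MHC class II gene *H2-Eb1* (1.01 and 1.17) and *Sirpb1c* (1.06 and 1.44). Among the 10 were the chemokine genes *Ccl8* (-1.67 and -2.76), *Ccl7* (-1.75 and -1.58) and *Ccl2* (-1.38 and -1.34), the *Axl* ligand gene *Gas6* (-1.52 and -2.24), the cytokine gene *Il10* (-1.22 and -2.01) and the scavenger receptor gene *Stab1* (-1.02 and -1.71). *Mrc1*, the gene that drives the toxin receptor, was 516 CPM in C1q-high cells and 800 CPM in *Cbr2* *Folr2* cells of PBS, and 525 and 1021 CPM in DTX.

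**Figure D3:**
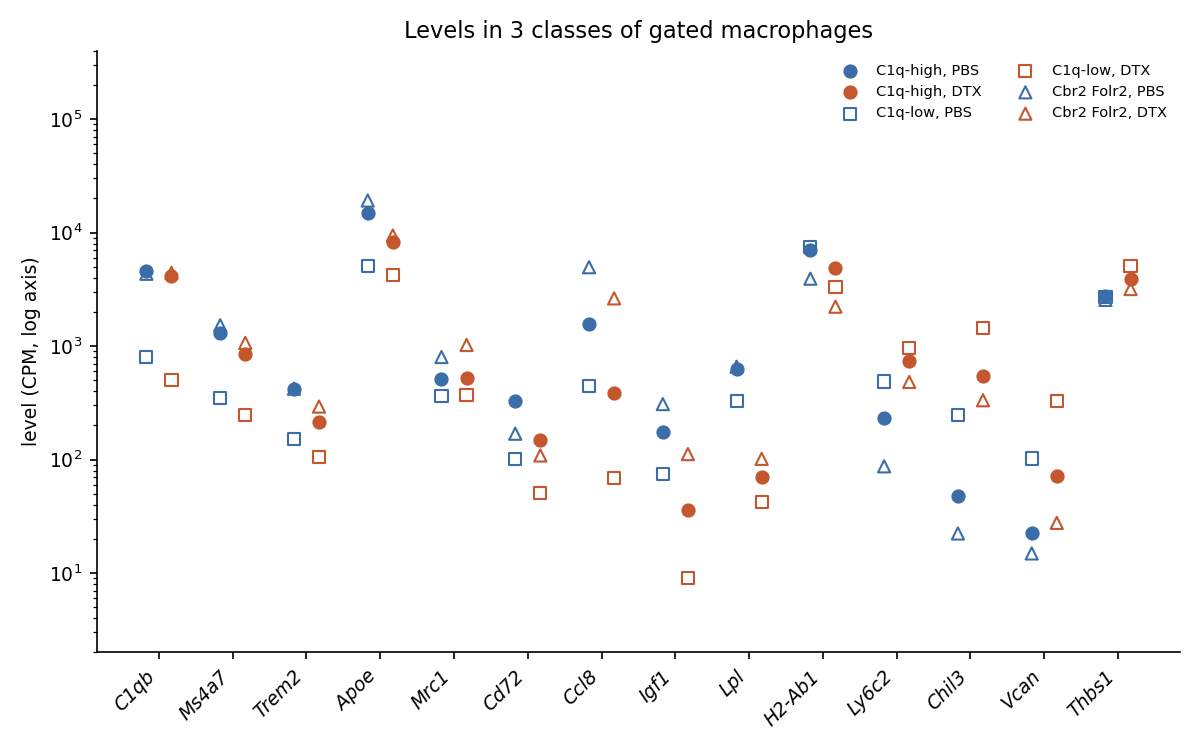
Levels of 14 genes (CPM, log axis) in C1q-high cells (filled circles), C1q-low cells (squares) and cells with *Cbr2* and *Folr2* (triangles) of PBS (blue) and DTX (orange). C1q-high cells lie above C1q-low cells for *Ms4a7*, *Trem2*, *Cd72*, *Ccl8* and *Igf1* and below them for *Chil3* and *Vcan*; *Lpl*, *Ccl8* and *Igf1* lie lower in DTX in each class compared.

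C1q-high macrophages were next compared between DTX and PBS. Their *Mrc1* level was nearly equal, 516 CPM (492 to 541) in PBS and 525 CPM (503 to 548) in DTX, a log2 ratio of 0.02 (-0.07 to 0.12), and 58.3% and 56.0% of thinned cells had a UMI of *Mrc1*, against 0.503% and 1.32% of lymphocytes. By contrast, several monocyte genes were higher in DTX, and *Ccl8*, *Igf1* and *Lpl* were lower. Of 3971 genes with at least 200 UMIs, 38 (0.957%) were at least 2 times higher in DTX, 1 of them a gene of the rule, and 44 (1.11%) at least 2 times lower, including *Folr2*, *Col1a1* and *Col3a1* of the rule, and the median log2 ratio of all 3971 was 0.09. Because of the single library per group, higher and lower mean past this limit of size and not past a test. The C1q-low macrophages of the same libraries had 128 of 7117 genes higher (1.8%) and 243 lower (3.41%), from more cells and UMIs. Their log2 ratios were -2.93 for *Lpl*, -2.69 for *Ccl8*, -2.62 for *Mmp12*, 2.26 for *Cxcl3*, 1.34 for *Ccl2* and 0.98 for *Ly6c2*, genes whose values in C1q-high cells follow, and no overlap is drawn from the 2 classes.

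**Figure D4:**
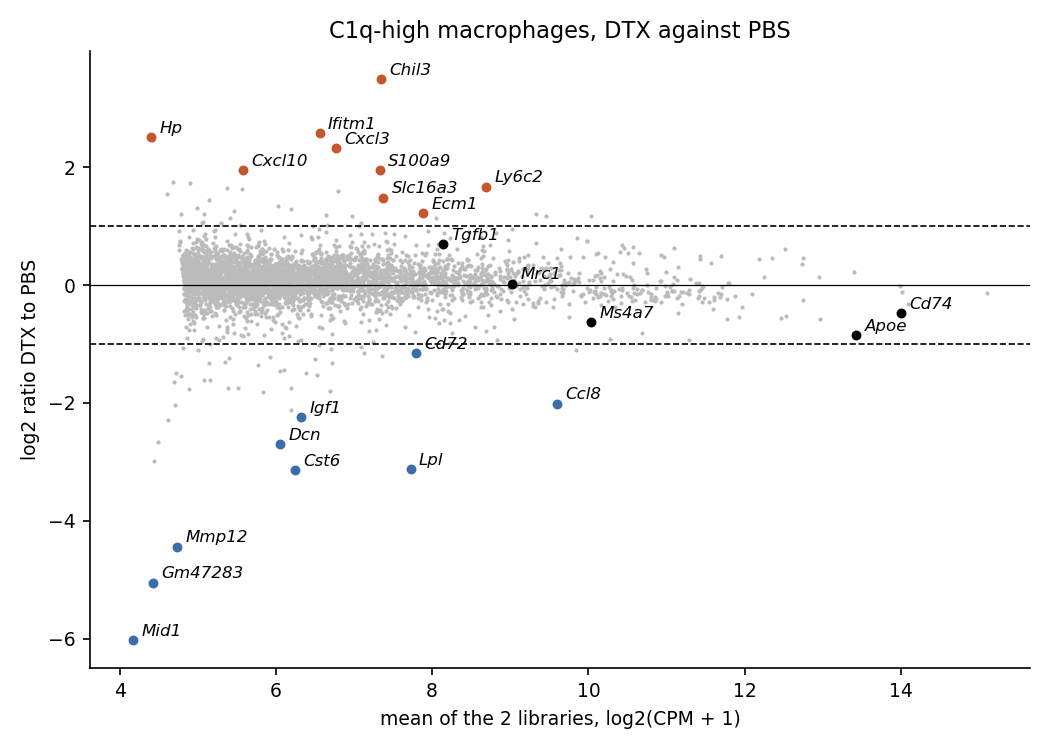
Log2 ratio DTX to PBS in C1q-high macrophages (y axis) against the mean level (x axis, log2 of CPM plus 1) of 3971 genes with at least 200 UMIs; dashed lines mark log2 ratios of 1 and -1. *Chil3* at 3.50 is the highest, *Mid1* at -6.02 the lowest, and *Mrc1* lies at 0.02.

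Of the 18 gene lists other than markers of other cells, that of circulating monocytes had the most genes past the limit. All 17 such genes with enough UMIs had positive log2 ratios, 7 were past the limit, and the median was 0.74 (0.92 over 20 genes in C1q-low cells). *Chil3* lay at 47.4 CPM (40.2 to 55.4) in PBS and 546 CPM (523 to 569) in DTX, a log2 ratio of 3.50 (3.29 to 3.77), and was found in 6.77% (4.86 to 9.14) and 37.1% (33.0 to 41.3) of thinned cells, against 0 of 199 lymphocytes in PBS, where the same limit of 3 cells allows up to 1.51%, and 1.32% in DTX. *Ly6c2*, the gene of the Ly6C antigen of inflammatory monocytes, went from 230 CPM (214 to 247) to 734 CPM (708 to 761), a log2 ratio of 1.67 (1.56 to 1.79), and from 19.3% to 38.9% of thinned cells, with 10.1% and 7.89% in lymphocytes, some of which make it. *Hp* (2.51), *Ifitm1*, for an interferon-induced membrane protein (2.57), *Vcan* (1.65) and *Plac8* (1.21) were past the limit as well. *Ccr2*, the receptor gene that brings monocytes out of the marrow, lay at 113 CPM (102 to 125) and 141 CPM (129 to 153), a log2 ratio of 0.31. *Chil3* lay at 246 CPM in C1q-low cells of PBS and 1442 CPM in those of DTX, so that the C1q-high cells of DTX stood between them. Neutrophil markers moved with these genes, from a sum of 304 CPM in PBS to 759 CPM in DTX, with *S100a8* (1.60, but 0.03 at a C1q threshold of 1%) and *S100a9* (1.95) past the limit, and their part was not tested. In DTX, 10 cells held 89.1% of the *S100a9* UMIs but 20.3% of those of *Chil3* and 17.8% of those of *Ly6c2*.

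The share of cells with *Ly6c2* RNA was also taken among cells with and without other genes, a description over cells of 1 library each. Among thinned C1q-high cells of PBS, 22.0% of the 500 cells with a UMI of *H2-Ab1* had one of *Ly6c2*, but 1.32% of those without. In DTX, 39.9% of the 431 cells with *H2-Ab1* and 35.1% of those without had *Ly6c2*. Hence in PBS the cells with *Ly6c2* were nearly all cells with *H2-Ab1*, 110 of 111, and in DTX they were 172 of 212.

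Among lipid genes the main difference was in *Lpl*. *Lpl*, lipoprotein lipase, which frees fatty acids from lipoproteins, lay at 624 CPM (597 to 651) in PBS and 70.5 CPM (62.6 to 79.2) in DTX, a log2 ratio of -3.13 (-3.33 to -2.96), and in 39.1% and 10.1% of thinned cells, with about 1% of lymphocytes in either library. *Apoe*, the apolipoprotein that takes up cholesterol from cells, lay at 14780 and 8201 CPM, a log2 ratio of -0.85, and *Trem2* at 420 and 213 CPM, of -0.98, just short of the limit. *Fabp4*, a fatty acid carrier, was past it at -1.75, but 10 cells held 63.5% of its UMIs in PBS and its ratio was -0.08 at a C1q threshold of 0.25%. In the list of lipid handling, 3 of 17 genes were lower and 0 higher, and the median was -0.54 (-0.27 in C1q-low cells). Among 20 lysosome genes 2 were lower, *Gpnmb* at -1.32 (-0.44 in cells with at most 2000 genes) and *Lipa*, for the acid lipase, at -1.14 (-0.70 in such cells), and the median was -0.27. Of 12 genes of iron and heme none was past the limit, the lowest being *Hmox1*, heme oxygenase, which went from 3458 to 1813 CPM (-0.93), and the median was -0.33.

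Growth factor and chemokine genes went both ways. *Igf1* lay at 173 CPM (159 to 188) in PBS and 35.8 CPM (30.2 to 42.1) in DTX, a log2 ratio of -2.24 (-2.55 to -2.01), with -2.89 in C1q-low cells. *Gdf15*, a stress-induced factor, was at -1.52 (-0.99 in cells with at most 2000 genes) and *Gas6* at -1.24 (-0.55 at a C1q threshold of 1%), so that 3 of 12 growth factor genes were lower and 0 higher, while *Pdgfa* was at -0.21 (-0.50 to 0.07), *Vegfa* at -0.06 and *Tgfb1* at 0.69. *Ccl8* lay at 1558 CPM (1516 to 1601) in PBS and 386 CPM (367 to 406) in DTX, a log2 ratio of -2.01, and was found in 33.9% (30.0 to 37.9) and 8.44% (6.25 to 11.1) of thinned cells. In DTX, 10 cells held 71.0% of its UMIs. Of 19 chemokine and receptor genes, 4 were past the limit upward and 2 downward, and the median ratio was 0.45. The higher ones were *Cxcl3* (2.33), *Cxcl10* (1.95), *Ccr1* (1.13) and *Ccl2*, the main attractant of monocytes, which lay at 468 CPM (445 to 491) and 1060 CPM (1028 to 1092), a log2 ratio of 1.18 (1.10 to 1.27) that was 0.89 with the mean of single cells. *Ccr1* was at 0.96 in cells with at most 2000 genes. The lower ones were *Ccl8* and *Cxcl9*, an interferon-induced attractant of T cells, which was at -2.67 with 82.7% of its 185 UMIs in PBS from 10 cells.

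For MHC class II and costimulation, 1 of 9 genes was higher, *Cd80* at 1.34, and 0 lower, but 8 of 9 ratios were negative, with a median of -0.47. *H2-Ab1* lay at 7086 CPM (6996 to 7177) in PBS and 4904 CPM (4836 to 4973) in DTX. In C1q-low cells 7 of 11 genes of this list were lower, with a median of -1.15, so that C1q-high cells had the smaller difference of the 2 classes; whether they differ was not tested. Of 17 inflammatory genes 1 was higher, *Cxcl3*, and 1 lower, *Ccl5*, with a median of 0.26. *Ccl5*, a chemokine gene of T and NK cells, lay at 132 CPM in PBS and 39.0 CPM in DTX against 853 and 503 CPM in lymphocytes, and 10 cells held 69.0% and 83.4% of its UMIs; the part of lymphocyte RNA was not tested. Interleukin 1 beta RNA (*Il1b*) lay at 2030 and 2515 CPM, a log2 ratio of 0.31. Of 14 interferon response genes 1 was higher, *Cxcl10*, and 0 lower, with a median of 0.36, while the interferon-induced *Cxcl9*, which is in the chemokine list, was lower (-2.67), and *Isg15* was at 0.40. *Cxcl10* had 374 UMIs in DTX, 90.6% of them in 10 of 546 cells, and was found in 3.99% and 2.75% of thinned cells, under the shares of 8.04% and 8.55% in lymphocytes. In cells with at most 2000 genes its log2 ratio was -0.18.

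In matrix remodelling, 3 of 17 genes were higher and 3 lower. *Mmp12*, macrophage elastase, lay at 123 CPM (111 to 135) in PBS and 4.72 CPM (2.84 to 7.37) in DTX, a log2 ratio of -4.44 (-5.45 to -4.04), with 70.8% of its 407 UMIs in PBS from 10 cells. *Serpinb2* was at -2.99, and *Mmp13* lay at 43.1 and 14.7 CPM, while *Fn1* was at 1.06 (0.77 with *Cbr2* *Folr2* cells kept), *Tgfbi*, for a matrix protein induced by TGF-beta, at 1.17 (0.92 in cells with at most 2000 genes) and *Ecm1* at 1.22. *Serpinb2* lay at 60.3 CPM in PBS and 6.71 CPM in DTX, against 173 and 5.44 CPM in lymphocytes. Cells gated as keratinocytes had 7658 and 6134 CPM of it, and the part of their RNA was not tested. *Thbs1*, thrombospondin 1, lay at 2779 and 3929 CPM, a log2 ratio of 0.50. For complement beyond C1q, 1 of 10 genes was lower, *C4b* at -1.10, 0 were higher, and *Cfp*, properdin, was at 0.81, with a median of 0.23. Of 12 efferocytosis genes 1 was lower, *Gas6*, and the median was 0.11. Scavenger and lectin receptor genes had 1 of 11 lower, *Mgl2* at -1.46, and a median of -0.12, and alternative activation had *Chil3* higher and *Mgl2* lower of 9 genes, with a median of 0.06.

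None of 20 macrophage transcription factor genes was past the limit; *Spic* was lowest at -0.87 and *Hif1a*, for the hypoxia factor, highest at 0.90, with a median of 0.23. None of 20 immediate early and heat shock genes was past it either, with a median of -0.08. Of 18 glycolysis and hypoxia genes 1 was higher, the lactate exporter gene *Slc16a3*, which went from 98.3 to 277 CPM (1.48), and the median was 0.17. Cycling cells were rare. With at least 3 UMIs of 17 cell cycle genes in a thinned cell as the limit, 3 of 576 C1q-high cells in PBS (0.521%, 0.108 to 1.51) and 5 of 545 in DTX (0.917%, 0.299 to 2.13) passed, against 47.2% and 44.1% of lymphocytes (1.16%, 2.75%, 60.6% and 57.9% unthinned).

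**Figure D5:**
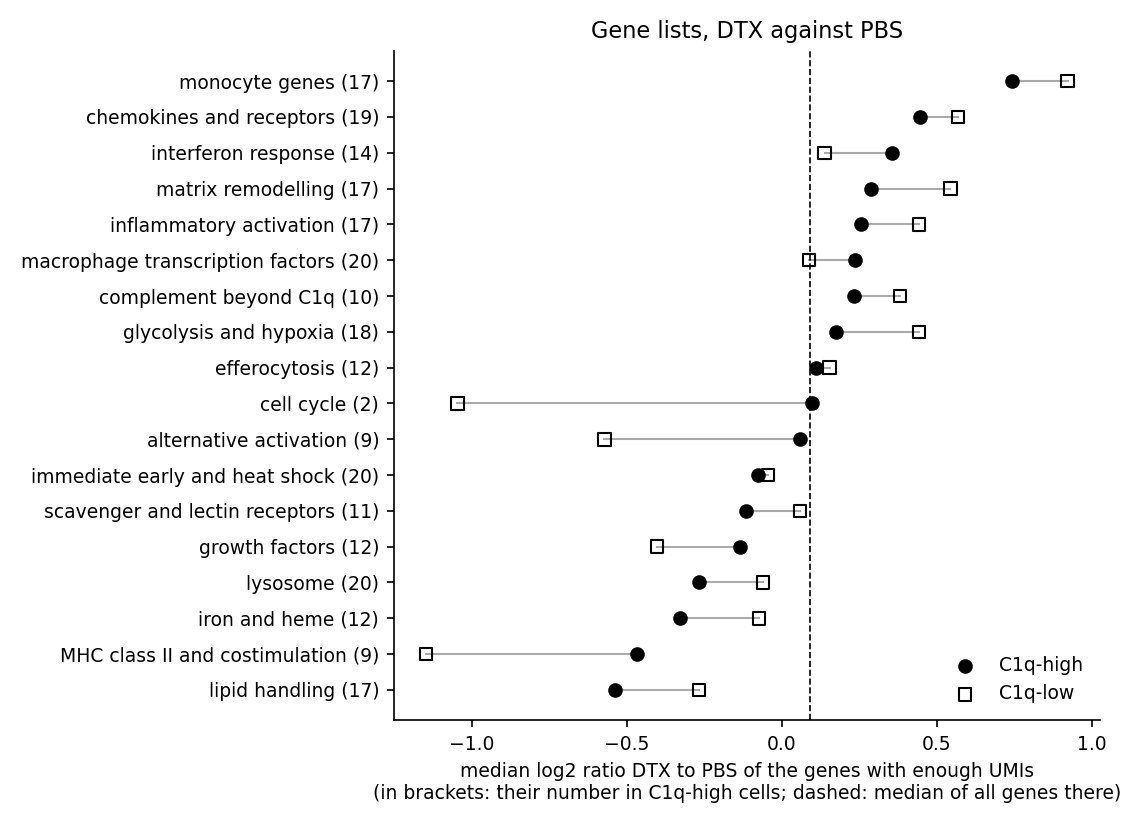
Median log2 ratio DTX to PBS (x axis) of 18 gene lists in C1q-high (circles) and C1q-low macrophages (squares), each over the genes with at least 200 UMIs in that class; brackets give their number in C1q-high cells and the dashed line the median of all genes there, 0.09. In C1q-high cells, monocyte genes are highest, at 0.74, and lipid handling lowest, at -0.54. In C1q-low cells, monocyte genes are highest, at 0.92, and MHC class II and costimulation lowest, at -1.15.

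RNA of other cells moved with the libraries. The 10 fibroblast markers summed to 612 CPM in C1q-high cells of PBS and 152 CPM in those of DTX, with none of the 10 at 0. *Sparc* was the most abundant by the UMIs of both libraries together, the measure used for each list below. In PBS alone, *Dcn* (167 CPM) and *Col1a2* (151 CPM) lay above *Sparc* (139 CPM). All 4 fibroblast markers with enough UMIs were lower, such as *Dcn*, decorin, at -2.69 and *Lum*, lumican, at -2.28. The sums were 494 and 542 CPM in lymphocytes. The 14 keratinocyte markers summed to 610 and 242 CPM, with *Lgals7* the most abundant, 3 of 4 with enough UMIs lower and none at 0. In lymphocytes they summed to 2099 CPM in PBS and 288 CPM in DTX. The 8 neutrophil markers summed to 304 and 759 CPM, with *S100a9* the most abundant, 2 of 4 higher and *Camp* at 0, and 10 cells held 91.8% of the *S100a9* UMIs in PBS and 89.1% in DTX. Lymphocytes had sums of 77.9 and 267 CPM for the neutrophil markers. The log2 ratio of *S100a9*, 1.95, was 0.47 at a C1q threshold of 1%. The 5 erythroid markers summed to 82.9 and 0 CPM, with *Hbb-bs* the most abundant and *Alas2* at 0, and 1 cell held 142 of the 147 *Hbb-bs* UMIs in PBS. The remaining lists had no gene with enough UMIs and summed to 11.2 and 4.72 CPM for lymphocytes (*Gzma* most abundant), 32.3 and 19.9 for dendritic cells (*Cd209a*), 29.9 and 40.0 for endothelium (*Pecam1*), 11.2 and 15.6 for mast cells (*Cma1*, with *Fcer1a* at 0) and 14.2 and 13.7 for pericytes (*Acta2*). The part of other cells' RNA in *Serpinb2*, *Mmp13*, *Cst6* and the collagen genes was not tested; *Cst6*, cystatin M, had 293 of its 746 UMIs in PBS in 1 cell, and its log2 ratio of -3.14 was 0.12 with cells thinned before the rule. *Igf1*, *Lpl*, *Ccl8* and *Vcan* are also used by fibroblasts, which had 194, 183, 1052 and 210 CPM of them in PBS and 255, 152, 520 and 263 CPM in DTX. *Gas6*, *Gpnmb* and *Ccl2* lay higher in fibroblasts than in C1q-high cells of either library. Fibroblasts had 600, 438 and 8356 CPM of them in PBS and 560, 262 and 7756 CPM in DTX. The part of fibroblast RNA in these genes was not tested. *Igf1*, *Lpl*, *Ccl8*, *Chil3* and *Vcan* lay at 3.27, 5.89, 18.3, 0.654 and 2.62 CPM in lymphocytes of PBS, under their levels in C1q-high cells there.

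Within the population, levels also changed with the C1q share itself. In PBS 377 cells had 0.5 to 1% of UMIs from C1q, 220 had 1 to 2% and 4 had more, and in DTX 404, 140 and 2. From the first to the second range, *Cd72* went from 234 CPM (213 to 256) to 450 CPM (414 to 488) in PBS and from 123 CPM (111 to 137) to 209 CPM (183 to 239) in DTX. *Ms4a7* went from 1131 to 1534 CPM and from 743 to 1081 CPM. *Chil3* went the other way, from 59.0 CPM (48.9 to 70.7) to 30.3 CPM (21.5 to 41.4) and from 639 CPM (610 to 669) to 300 CPM (268 to 334), as did *Ly6c2*, from 254 to 198 CPM and from 804 to 553 CPM. *Mrc1* changed little, from 542 CPM (511 to 576) to 481 CPM (444 to 520) and from 527 CPM (501 to 554) to 518 CPM (476 to 562). In both libraries, cells with more C1q RNA thus had more *Cd72* and *Ms4a7* and less *Chil3* and *Ly6c2* RNA. Even in the range from 1 to 2%, *Chil3* lay higher in DTX than in either range of PBS. *Mrc1* was found more often in cells with *Ccl8*, a description over cells of 1 library each. In PBS 74.4% of cells with *Ccl8* and 50.1% of those without had *Mrc1*, and in DTX 78.3% and 53.9%, where 46 cells had *Ccl8*.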

How the data were processed

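According to the file headers and the submitters' processing notes, the authors made the deposited UMI counts with Cell Ranger 6.1.1 on mm10 (the methods name 6.0.0). The counts were not normalized, and no column of another sample was used. From them, each class was given 1 sum per gene, scaled to CPM, and 1 CPM was added before log2 ratios. Genes with at least 200 UMIs in the classes compared were used, and a log2 ratio of 1 or -1 was the limit. Intervals are exact (Poisson for levels, conditional binomial for ratios, Clopper-Pearson for shares). Those of ratios were checked on counts simulated from the same Poisson model. That check cannot cover genes whose UMIs are concentrated in a few cells. Where a share is 0, its limit is 3 cells of the total instead. For detection rates, each cell was first thinned to 2000 UMIs. The rule also has an upper limit on 1 gene that is not reported here, and cells over it and the alternative without it are left out of the text. It has no step for doublets, and an alternative removes the 8% of cells with the highest Scrublet score (scanpy 1.11.5). Python 3.11.15, numpy 2.4.6, scipy 1.17.1, pandas 2.3.3 and matplotlib 3.10.9 were used. The rule for named genes took the label markers, the checks of sex and genotype, *Mrc1*, the 10 largest differences in each direction between libraries and from C1q-low cells, and the leading genes of 29 lists. The text names part of these, and others chosen with their values in view. The members and lists were chosen with earlier results of these data known.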

Additional observations from a re-analysis of the deposited data

Results flagged for a closer look

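*Cxcl10* moved past the limit in opposite directions in the 2 main classes of macrophages. Its log2 ratio DTX to PBS was 1.95 (1.64 to 2.37) in C1q-high cells, from 77 and 374 UMIs, and -1.10 in C1q-low cells, where it lay at 72.3 CPM in PBS and 33.3 CPM in DTX. The difference between the classes was not tested. In C1q-high cells of DTX, 10 cells held 90.6% of the UMIs, and 1 cell held 70. With at most 2000 genes per cell, the log2 ratio in C1q-high cells was -0.18. In cells with *Cbr2* and *Folr2*, *Cxcl10* lay at 31.9 CPM in PBS and 271 CPM in DTX, a log2 ratio of 3.05.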

How the results depend on the processing

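The share of C1q-high cells in the gate was lower in DTX than in PBS under all 7 alternatives that change the cells. It moved beyond its interval with a C1q threshold of 0.25% (52.8% in PBS and 22.0% in DTX) or 1% (14.4% and 3.14%), with *Cbr2* *Folr2* cells kept (48.9% and 14.9%) and with cells thinned to 2000 UMIs before the rule (49.6% and 17.4%). Between DTX and PBS, 38 genes were higher and 44 lower, which became 13 and 21 with at most 2000 genes per cell, 22 and 24 at a C1q threshold of 1%, 84 and 119 with at least 50 UMIs per gene and 256 and 536 with at least 1 UMI, and 79 lower at 0.25%. Against C1q-low cells, 18 higher became 8 with at most 2000 genes, 9 at 1%, 30 with *Cbr2* *Folr2* cells kept, 30 with at least 50 UMIs and 42 with at least 1, and 58 lower became 12 with at most 2000 genes, 22 at 0.25%, 13 with thinned cells, 88 at a mitochondrial limit of 10%, 35 with the mean of the CPM of single cells, and 153 and 237 with at least 50 and 1 UMIs. Against *Cbr2* *Folr2* cells, 3 higher became 0 at 1%, 6 at the mitochondrial limit of 10%, 5 with the mean of single cells and 10 and 116 with at least 50 and 1 UMIs, and 10 lower became 4 at 1% and 23 and 145 with at least 50 and 1 UMIs. Fewer cells or genes enter several of these settings, and other causes were not tested.

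Of 47 genes of the naming rule past the limit between DTX and PBS, 32 remained past it under all 10 alternatives that apply to them. Of 10 genes past the limit that were named outside that rule, 1 did, *Plac8*. The values nearest 0 of the others were -0.08 for *Fabp4* at a C1q threshold of 0.25%, 0.03 for *S100a8* at 1%, -0.27 for *Cd207*, -0.70 for *Lipa*, 0.96 for *Ccr1* and 0.92 for *Tgfbi* with at most 2000 genes, -0.96 for *Mmp13* at 0.25%, 0.77 for *Fn1* with *Cbr2* *Folr2* cells kept and 0.89 for *Ccl2* with the mean of single cells. Among the genes of the rule, the sign turned for *Cxcl10* (-0.18) and *Gzma* (0.51) with at most 2000 genes per cell and for *Cma1* (-0.11) and *Cst6* (0.12) with thinned cells. With at most 2000 genes, 422 cells remained in PBS and 204 in DTX. Removing the highest Scrublet scores took out 2 of 601 C1q-high cells in PBS and 32 of 546 in DTX. With 1 library per group, no spread between mice or captures is known, and no replicate could be left out. Counts over all genes leave out those under 200 UMIs, but the named genes include some under it, such as *Gzma* with 10 and 3 UMIs and *Cma1* with 11 and 33. No paired analysis was possible because each group has 1 library.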
